A study of Mus musculus with 94 samples.

Results

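The small leucine-rich proteoglycans were described here in single PV-ADSCs, the stem cells derived from perivascular adipose tissue. The 9 genes examined were *Dcn*, *Lum*, *Bgn*, *Fmod*, *Ogn*, *Aspn*, *Prelp*, *Podn* and *Omd*, chosen by name. All 9 had a row among the 16069 genes of the deposited table. The cells came from fat around the aorta of mice aged 8 weeks, with the strain labelled as c57/bl,, and were sorted as CD144-, CD45-, CD29+ and Sca1+ without any culture or treatment. Full-length cDNA of each cell was sequenced as 1 library, and 85 of the 94 cells described had a column in the table. No animal was named for a cell, so that all cells counted as 1 sample and no test between cells was made. Cells with a deposited *Dcn* value of at least 1000 are called stromal cells below (58 cells), and the remaining 27 are called other cells.

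Small leucine-rich proteoglycans are secreted proteins built around a chain of leucine-rich repeats, and many carry chondroitin, dermatan or keratan sulfate chains. They bind collagen and set the width and spacing of collagen fibrils, and several of them hold growth factors such as TGF-β in the matrix. In connective tissue, including the adventitia and the stroma of fat, fibroblasts are their main source. Decorin (*Dcn*), biglycan (*Bgn*) and asporin (*Aspn*) form the first class of the family. Lumican (*Lum*), fibromodulin (*Fmod*), prolargin (*Prelp*) and osteomodulin (*Omd*) belong to the second, osteoglycin (*Ogn*) to the third, and podocan (*Podn*) to a further one.

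The deposited values were normalized read counts, in which groups of genes had been multiplied by factors that differed between cells. Dividing the factors out returned whole numbers for 5404 genes. The remaining genes, among them *Fmod*, were taken at their deposited values. Both are called counts below, and these ranged from 1146945 to 4776510 in sum per cell. A count need not be 1 read, since *Lum* stood at exactly 4 counts in 9 cells and at 1 or 2 counts in none. CPM is the count of a gene per 1000000 counts of its cell. The label of stromal cells was compared with genes outside the family. At least 4 of 7 stromal genes (*Pdgfra*, *Col1a1*, *Col1a2*, *Col3a1*, *Lrp1*, *Clec3b* and *Serping1*) reached 100 counts in 52 of the 58 stromal cells, and in 0 of the 27 other cells. Among the other cells, 24 held at least 3 of 15 endothelial markers at 100 counts, compared with 1 stromal cell (cell 34), which held 6. The summed CPM of the endothelial markers ranged from 0 to 14184 in stromal cells (median 4.63) and from 0 to 14846 in other cells (median 9586), and *Tie1* and *Erg* were at 0 in all stromal cells.

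*Dcn* values were far apart on either side of the split. Cells 20 and 48, just below it, had deposited *Dcn* values of 269.0 and 239.2, whereas the lowest stromal cells, 50 and 61, had values of 6521 and 11185. Cell 50 stood apart from all others. Its *Dcn* value came from 69 counts multiplied by a factor of 94.5, while the next highest factor for *Dcn* in any cell was 4.38. It had the lowest sum of counts (1146945), none of the 7 stromal genes at 100 counts, 5 counts of *Bgn*, 2 of *Aspn* and none of the remaining 6 members. Results are therefore given with cell 50, and without it where it matters.

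**Figure D1:**
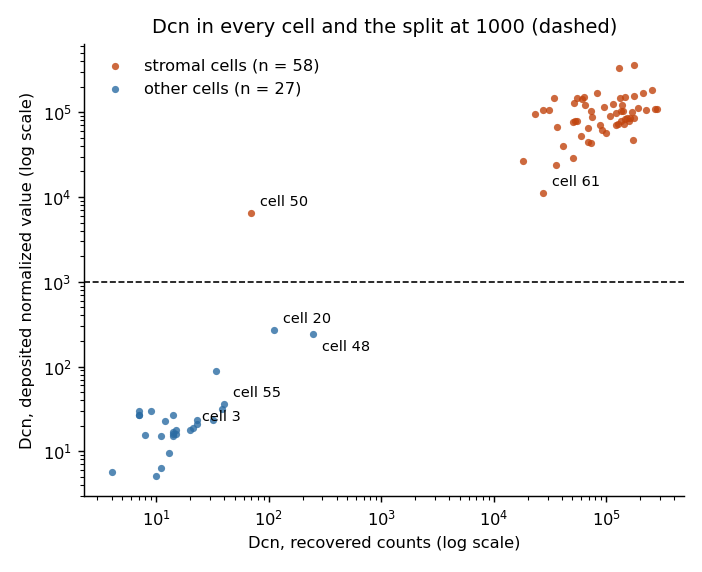
*Dcn* in each of the 85 cells, as the deposited normalized value (vertical axis, log scale) against recovered counts (horizontal axis, log scale), with the split at 1000 dashed. Of the 58 stromal cells, 57 lie at 18172 counts or more, and cell 50 lies at 69 counts, among the other cells on the horizontal axis.

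*Dcn*, which encodes decorin, the collagen-binding founder of the family, was found in all 58 stromal cells. Stromal cells held 69 to 282890 counts of it (median 96905), and no fewer than 18172 when cell 50 was left out. Other cells also held *Dcn* in 27 of 27 cells, at 4 to 248 counts with a median of 14. The ranges overlapped in counts through cell 50 alone, and did not overlap without it. A single gene thus took a median of 35280 CPM in stromal cells compared with 5.25 CPM in other cells. Since *Dcn* set the split, its difference is a description of that choice.

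*Bgn* encodes biglycan, the closest relative of decorin, which binds collagen and receptors of innate immunity. It was found in 54 of 58 stromal cells (93.1%, exact Clopper-Pearson 95% interval 83.3 to 98.1%), at 0 to 11727 counts with a median of 3362. In other cells, *Bgn* was found in 13 of 27, and in all but 2 of these it stayed at 12 counts or fewer. The exceptions, singled out after their values were seen, were cell 3 with 6787 counts and cell 55 with 6321 counts, both above the stromal median. They held 8 and 7 endothelial markers at 100 counts, no stromal gene at that level, and *Dcn* at 21 and 40 counts. The high *Bgn* of these cells was thus not joined by *Dcn*, *Lum* (0 and 5 counts) or *Aspn* (2 counts each). Cell 55 also held 1403 counts of *Ecm2*, a leucine-rich matrix gene next to *Aspn*, which no further other cell contained.

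*Aspn* encodes asporin, a decorin relative that binds collagen and TGF-β and carries a stretch of aspartate residues. It was found in 47 of 58 stromal cells (81%, interval 68.6 to 90.1%), at 0 to 32739 counts with a median of 748. The level was divided, as 33 stromal cells had at least 100 counts and 10 had between 1 and 9. The median moved to 944 without cell 50. In other cells, *Aspn* was found in 11 of 27, at 11 counts or fewer.

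*Lum* encodes lumican, a keratan sulfate proteoglycan of collagen-rich tissue. It was found in 55 of 58 stromal cells (94.8%, interval 85.6 to 98.9%), at 0 to 39916 counts with a median of 9085. At least 100 counts were reached in 49 stromal cells and in none of the other cells, in which *Lum* was found in 11 of 27 at 21 counts or fewer. Prolargin, encoded by *Prelp*, anchors basement membranes to the connective tissue beneath. *Prelp* was found in 33 of 58 stromal cells (56.9%, interval 43.2 to 69.8%), at 0 to 4110 counts with a median of 301, and of these cells 32 had at least 100 counts. The remaining stromal cell held 4 counts, and a single other cell held 3.

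Osteomodulin (*Omd*), best known from bone, was found in 10 stromal cells (17.2%, interval 8.59 to 29.4%), with a median of 882 counts in those cells and a highest value of 4905. Fibromodulin (*Fmod*), a regulator of fibril diameter that is abundant in tendon, was found in 2 stromal cells (3.45%, interval 0.420 to 11.9%), with 252 counts in cell 18 and 74 in cell 29. *Ogn* encodes osteoglycin, also called mimecan. It was found in 37 of 58 stromal cells (63.8%, interval 50.1 to 76%), at 0 to 34669 counts with a median of 2014, and its lowest value above 0 was 46 counts. *Podn*, the gene of podocan, a collagen-binding protein of the vessel wall, was found in 18 stromal cells (31%, interval 19.5 to 44.5%), with a median of 265.5 counts in those cells and a highest value of 2197. *Ogn*, *Podn*, *Omd* and *Fmod* were at 0 in all 27 other cells, which allows a share of up to 11.1% for each of them (3 of 27 cells; the exact upper limit is 12.8%). These intervals and limits cover counting error only.

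**Figure D2:**
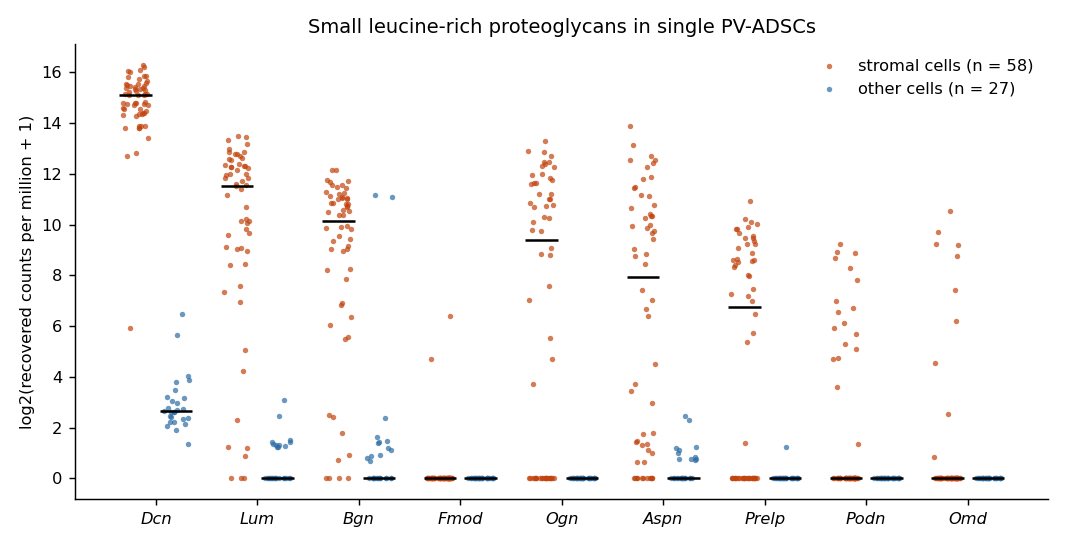
CPM of the 9 members, as log2(CPM + 1) (vertical axis), with 1 point per cell for the 58 stromal and 27 other cells and a line at each median. *Dcn*, *Lum* and *Bgn* fill nearly all stromal cells, *Ogn*, *Aspn* and *Prelp* split them, and 2 other cells stand among the stromal cells for *Bgn*.

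The low counts in other cells were compared with the stromal level. The mean CPM of *Dcn* in other cells was 0.0308% of the stromal mean, and the same measure was 0.0285% for *Lum*, 0.0410% for *Aspn* and 0.0402% for *Col3a1*, the chain of collagen III. *Bgn* stood at 12.5%, or at 0.0500% without cells 3 and 55. *Ogn* was at 0 in other cells although its mean CPM in stromal cells (1833) exceeded that of *Aspn* (1497). Whether the low counts came from the cells themselves was not tested.

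Together the 9 members made up a median of 4.35% of all counts of a stromal cell, with a range of 0.00663% (cell 50) to 9.43%. *Dcn* took a median of 81.7% of this sum, and no less than 44.2% in any stromal cell. In other cells the sum of the members was at most 0.234% of the counts, a contrast that *Dcn*, which set the split, largely fixes. Without *Dcn*, the sum had a median of 0.769% in stromal cells (0.000610 to 2.03%) and of 0.000145% in other cells (0 to 0.233%), where the highest values belonged to cells 3 and 55. Stromal cells expressed between 3 and 8 of the 9 members above 0 and 29 of the 58 expressed 6 or more. At 100 counts, 23 stromal cells held 6 or more members, while no other cell held more than 1. Stromal cells also had more genes above 0 (850 to 4148, median 2813) than other cells (285 to 2278, median 1416), and the part of this difference in the shares was not tested. Thinning makes only the sums of counts equal. When every cell was thinned to 1146945 counts, the numbers of stromal cells with *Ogn* (37), *Prelp* (33), *Podn* (18) and *Fmod* (2) were the same as before thinning, and those with *Lum* (54), *Aspn* (44) and *Omd* (9) were lower by 1 to 3 cells.

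The difference between the mean log2(deposited value + 1) of stromal cells and that of other cells was then set beside that of all genes. The comparison took in 11478 genes, each above 0 in 3 or more cells. Among them, 35.6% were at least 1 higher in stromal cells (4088 genes) and 2.84% were at least 1 lower (326 genes), with a median difference of 0.64. Of the 8 members besides *Dcn*, 7 entered this comparison, and all 7 were at least 1 higher. *Ogn*, *Podn* and *Omd* were above 0 in stromal cells alone and passed the filter through them, so that their direction was fixed, whereas *Lum*, *Bgn*, *Aspn* and *Prelp* had values above 0 in both (*Prelp* in 1 other cell). *Fmod*, with 2 cells, was below the filter. The median difference over the 7 members was 6.61. The largest differences were 9.93 for *Lum* (11.11 ± 4.16 in stromal and 1.18 ± 1.56 in other cells, SD over 58 and 27 cells), 8.02 for *Bgn* (9.97 ± 3.93 and 1.95 ± 3.32) and 7.65 for *Ogn* (7.65 ± 6.07, compared with 0 in all other cells). These 3 ranked 13, 52 and 62 of the 11478 genes. *Aspn* differed by 6.61 and *Prelp* by 5.53, whereas *Podn* (2.39) and *Omd* (1.45) differed less than the SD of their own stromal values, 3.78 and 3.42. *Dcn*, for which the split fixes the direction, differed by 11.77 and ranked first.

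The split itself was also replaced by the panel of 7 stromal genes, which holds no member of the family. All 52 cells it selected were among the 58 stromal cells. With it, the differences were 9.22 for *Lum*, 8.17 for *Bgn*, 7.47 for *Ogn*, 5.72 for *Aspn* and 5.24 for *Prelp*. That of *Dcn* was 9.79, since the 6 cells that left the stromal cells kept deposited *Dcn* values of 6521 (cell 50) or more.

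Levels of different members were compared in the 58 stromal cells as counts per kilobase of the longest coding transcript. The medians were 55122 for *Dcn*, 3711 for *Lum*, 1390 for *Bgn*, 785 for *Ogn*, 321 for *Aspn* and 83.1 for *Prelp*. *Omd*, *Podn* and *Fmod* had a median of 0. *Dcn* exceeded *Lum* per kilobase in 58 of 58 cells, by 14.9 times at the median, and their interquartile ranges did not overlap. For every later pair of neighbours in the order the interquartile ranges overlapped. *Lum* exceeded *Bgn* in 40 cells and was below it in 18, while *Bgn* exceeded *Ogn* in 29 cells and was below it in 28, so that the order of these last 2 did not exceed their spread. *Ogn* exceeded *Aspn* in 25 cells and was below it in 30, although its median was higher. By the mean over cells in place of the median, *Ogn* (2211) and *Aspn* (1820) stood above *Bgn* (1692). The highest cell reached 13511 for *Ogn* and 14057 for *Aspn*, compared with 4848 for *Bgn*.

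**Figure D3:**
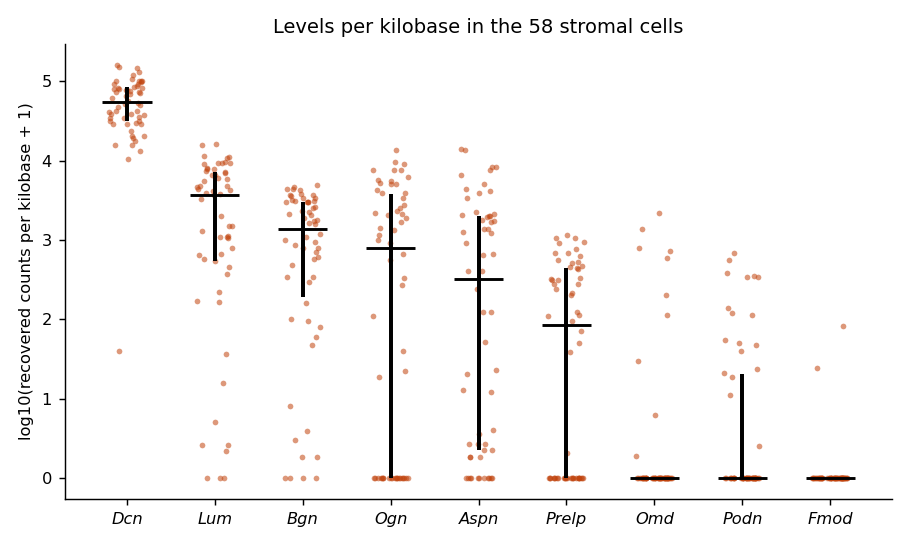
Recovered counts per kilobase in the 58 stromal cells, as log10(value + 1) (vertical axis), with points for cells, wide lines for medians and bars for interquartile ranges. *Dcn* stands clear of the others with a median of 55122, while the bars of every later pair of neighbours overlap.

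Within the stromal cells the members formed many combinations. At 10 counts or more, 46 cells held both *Lum* and *Bgn*, out of 52 with *Lum* and 50 with *Bgn*. This was 88.5% of the cells with *Lum*, where *Bgn* was held by 86.2% of all stromal cells. *Ogn* and *Aspn* were each held by 37 cells and shared 25 of them, or 67.6% of each, where each gene on its own was held by 63.8% of all stromal cells. All 9 cells with *Omd* also held *Aspn* and *Lum*, and 6 of them held *Ogn*, where *Lum* was held by 89.7% of all stromal cells. Both cells with *Fmod* held *Prelp*, which was held by 55.2% of all stromal cells, and neither held *Lum* at 10 counts (4 counts each). *Prelp* and *Aspn* shared 18 cells, which was 56.3% of the 32 cells with *Prelp* and 48.6% of those with *Aspn*.

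**Figure D4:**
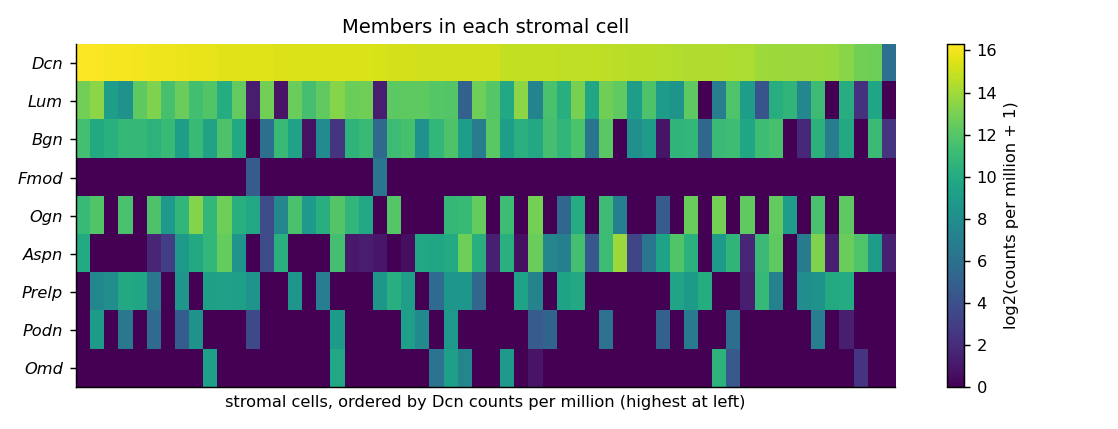
log2(CPM + 1) of the 9 members (rows) in the 58 stromal cells (columns), ordered by *Dcn* CPM from left to right. *Dcn*, *Lum* and *Bgn* run across most columns, and *Ogn* and *Prelp* mostly alternate between high and 0. *Aspn* also takes low values above 0, and cell 50 is the last column.

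Several of these genes lie side by side in the genome. In the RefSeq order of coding genes, *Ecm2*, *Aspn*, *Omd* and *Ogn* follow each other, as do *Prelp* and *Fmod*, and *Dcn* and *Lum*. Promoter sequences, from 250 bases before to 50 bases after the start of the transcript, were taken from RefSeq (GRCm38.p6) and matched 7 of the 9 members, with no entry for *Dcn* and *Lum*. They are shown for the 2 groups of neighbours whose co-occurrence is given above. Capitals mark each match on either strand to the TATA box (searched as TATAAA), to the CCAAT box (searched by these letters), to the GC box (searched as GGGCGG) and to the site of AP-1 factors (searched as TGACTCA).
Aspn, chr13:49544193-49544492, plus strand: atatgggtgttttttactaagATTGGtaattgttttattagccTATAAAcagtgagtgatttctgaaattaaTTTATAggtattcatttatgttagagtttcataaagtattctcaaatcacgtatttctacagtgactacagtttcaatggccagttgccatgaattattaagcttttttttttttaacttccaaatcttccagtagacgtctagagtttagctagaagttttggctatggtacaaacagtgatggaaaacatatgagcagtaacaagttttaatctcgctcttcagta
Omd, chr13:49582212-49582511, plus strand: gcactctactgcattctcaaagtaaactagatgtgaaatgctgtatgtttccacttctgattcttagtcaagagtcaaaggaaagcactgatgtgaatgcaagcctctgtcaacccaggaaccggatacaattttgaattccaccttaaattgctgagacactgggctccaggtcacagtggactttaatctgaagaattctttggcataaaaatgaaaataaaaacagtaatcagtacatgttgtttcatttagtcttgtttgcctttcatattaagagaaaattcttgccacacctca
Ogn, chr13:49607765-49608064, plus strand: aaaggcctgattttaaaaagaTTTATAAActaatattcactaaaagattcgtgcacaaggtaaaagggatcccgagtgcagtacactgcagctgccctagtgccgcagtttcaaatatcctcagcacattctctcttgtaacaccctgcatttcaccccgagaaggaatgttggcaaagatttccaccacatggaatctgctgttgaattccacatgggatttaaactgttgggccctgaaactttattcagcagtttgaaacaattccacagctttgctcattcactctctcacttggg
Prelp, chr1:133921352-133921651, minus strand: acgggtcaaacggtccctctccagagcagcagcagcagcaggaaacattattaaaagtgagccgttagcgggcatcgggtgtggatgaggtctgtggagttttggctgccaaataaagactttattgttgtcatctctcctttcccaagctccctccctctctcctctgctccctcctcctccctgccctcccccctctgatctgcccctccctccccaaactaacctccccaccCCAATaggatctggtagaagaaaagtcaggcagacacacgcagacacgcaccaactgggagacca
Fmod, chr1:134037004-134037303, plus strand: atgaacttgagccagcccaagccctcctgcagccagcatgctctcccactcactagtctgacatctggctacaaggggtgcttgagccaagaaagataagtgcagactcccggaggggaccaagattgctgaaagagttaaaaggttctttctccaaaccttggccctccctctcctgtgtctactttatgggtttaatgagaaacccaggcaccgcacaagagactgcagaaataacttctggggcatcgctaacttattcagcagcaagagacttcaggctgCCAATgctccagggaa
The TATA box was found in 13.6% of 32851 promoters of this length, the CCAAT box in 37.4%, the GC box in 35.7% and the AP-1 site in 5.20%. *Aspn* and *Ogn* each held 2 matches to the letters of the TATA box, which overlap each other in *Ogn*. All of these matches lie nearer to the far end of the window than to the start of the transcript. Whether any of them works as a TATA box was not tested. *Omd*, between *Aspn* and *Ogn*, held none of the 4 motifs. The CCAAT box was found once each in *Aspn*, *Prelp* and *Fmod*. The promoters of *Aspn*, *Omd* and *Ogn* had a GC content of 31%, 37.7% and 42.3%, compared with a median of 52.7% over all promoters, 55.3% for *Prelp* and 51% for *Fmod*. The neighbours *Omd* and *Ogn* were found in 10 and 37 stromal cells.

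The 6 members found in at least 20 stromal cells were also compared across these cells by rank. The median Spearman's rho over the 15 pairs was 0.15 for deposited values, with 11 pairs above 0, compared with a median of 0.04 and a 95th percentile of 0.27 over all pairs of 2707 genes. *Dcn* and *Lum* had the highest rho (0.37, or 0.44 in CPM), followed by *Lum* and *Ogn* (0.26, 0.24 in CPM) and *Ogn* and *Aspn* (0.24, 0.26 in CPM). *Dcn* and *Aspn* had the lowest (-0.15, or -0.33 in CPM). Over the 37 cells in which both genes were above 0, *Lum* and *Ogn* had a rho of -0.06 and *Dcn* and *Ogn* one of -0.22 (0.14 over all stromal cells). All cells share 1 sort, and the CPM of the 6 members had a rho of 0.07 to 0.31 with the number of genes per cell and of -0.10 to 0.41 with the sum of counts (0.41 for *Dcn* and 0.25 for *Lum*), so these values are descriptions over 58 cells. *Dcn*, *Lum*, *Bgn*, *Ogn* and *Aspn* further shared 1 set of scaling factors in the deposited values, which CPM does not contain.

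**Figure D5:**
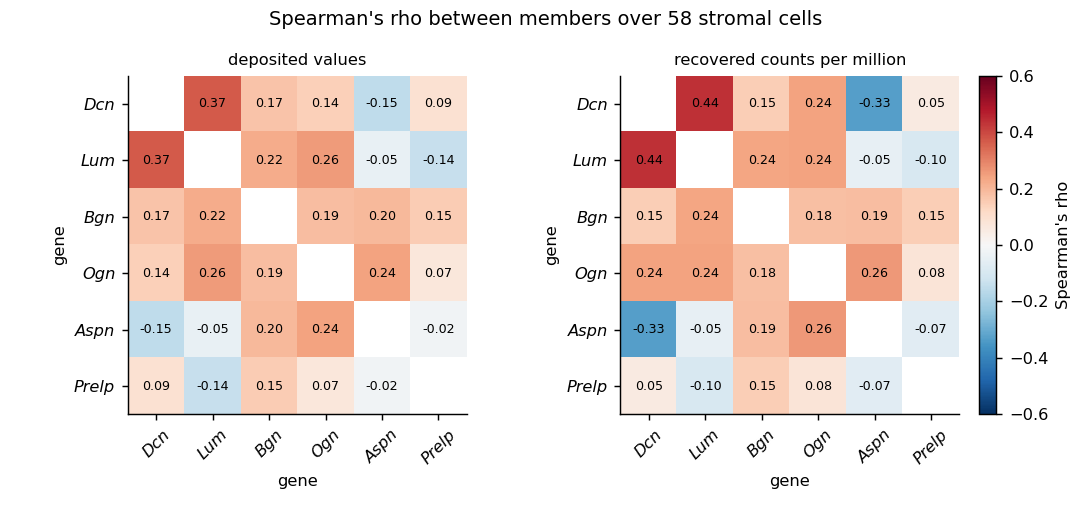
Spearman's rho between the 6 members found in at least 20 stromal cells (both axes), over 58 stromal cells, from deposited values (left) and CPM (right), with the diagonal left blank. *Dcn* with *Lum* is highest in both (0.37 and 0.44), and *Dcn* with *Aspn* is lowest in both (-0.15 and -0.33).

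The genes whose deposited values were most like each member were named by rho over the 58 stromal cells. For *Lum* these were *Cd63-ps* (0.56), *Cd63* (0.54), a tetraspanin, and *Igfbp7* (0.53), an IGF-binding protein. Reads of *Cd63* and its copy *Cd63-ps* may be split between them. For *Bgn* they were *Mfap4* (0.54), a protein of elastic microfibrils, *Calm2* (0.50) and *Tceal9* (0.49). For *Aspn* they were *Cilp* (0.54), a matrix protein first known from cartilage, *Tnks2* (0.50) and *Itgbl1* (0.49). *Prelp* was most like *Itgb1* (0.51), the integrin chain CD29 of the sort, *Fmo2* (0.47) and *Gm7290* (0.44). *Dcn* was most like *Pea15a* (0.41), *Tmem59* (0.41) and *Colec12* (0.40), and *Ogn* was most like *Gm9625* (0.49), *Gm22801* (0.48) and *Gm23419* (0.45). In CPM some of these values were higher (*Dcn* and *Tmem59*, 0.54) and some lower (*Dcn* and *Colec12*, 0.33, *Bgn* and *Calm2*, 0.39). *Mfap4*, *Cilp*, *Tnks2* and *Fmo2* were above 0 in only 20 to 22 stromal cells.

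Some members also varied between stromal cells with and without other genes of adipose progenitors, and mainly these are named here. *Aspn* was found in 39 of 45 cells with *Pi16*, a marker of adventitial progenitors, and in 8 of 13 without it, with medians of 809 and 1.45 CPM. *Omd* was found in 10 and 0 of these cells, *Fmod* in 0 and 2, and *Prelp* in 23 and 10 (medians of 1.59 and 258 CPM). *Bgn* had a median of 2063 CPM in the 19 cells with *Pdgfrb* and 685 in the 39 without. *Podn* was found in 10 of 20 cells with *Wt1* and in 8 of 38 without. By *Cd34*, *Ogn* was found in 25 of 38 cells with the gene and in 12 of 20 without, with medians of 969 and 87.6 CPM. *Prelp* was found in 20 and 13 of these cells (medians of 70.1 and 248 CPM). For genes at 0 in many cells, the median can move with few cells. Other comparisons were nearly level, such as *Bgn* by *Wt1* (medians of 1036 CPM with it and 1147 without) and *Podn* by *Pi16* (14 of 45 and 4 of 13 cells). These are values of 1 sample, with no test of the differences. The part of the number of genes per cell in them was not tested.

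Other genes of the family were found as well. *Ecm2* was found in 37 stromal cells at up to 11486 counts and differed by 4.71 on the log2 scale. *Epyc*, the gene of epiphycan, known from cartilage and lying beyond *Lum* and *Kera* in the gene order, was found in 8 stromal cells at up to 10454 counts. All 8 also held *Lum* and *Bgn* at 10 counts, as did 89.7% (*Lum*) and 86.2% (*Bgn*) of all stromal cells. *Tsku* was found in 4 stromal cells at up to 57 counts (difference 0.37) and *Chadl* in 2.

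Collagens were compared as well, and all those listed were higher in stromal cells. Of 12 fibrillar and associated collagens compared, 12 were at least 1 higher (median 6.91), led by *Col3a1* (10.86), *Col6a1* (9.47) and *Col1a1* (9.21) and ending with *Col15a1* (3.72), *Col12a1* (3.31) and *Col5a3* (1.59). *Col1a1*, *Col5a3* and *Col6a3* were at 0 in all other cells, so that their direction was fixed. Of 14 fibril assembly proteins, 13 were at least 1 higher (median 5.59). They were led by *Dpt* (10.64), the gene of dermatopontin, a decorin-binding protein, *Fn1* (10.17), fibronectin, and *Pcolce* (9.55), an enhancer of procollagen processing. *Thbs2* differed by 3.46, *P4ha1* by 1.48 and *Plod1*, a lysyl hydroxylase, by 0.27.

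The enzymes that build the sugar chains were compared next. Of 16 enzymes of the linkage region and of chondroitin or dermatan chains, 6 were at least 1 higher and none lower (median 0.78), a share close to that of all genes. *Chpf* (3.37) and *Csgalnact2* (2.80), which take part in chondroitin chain synthesis, and *Dsel* (2.2), a relative of the dermatan epimerase, differed most. *Xylt2* (-0.10), *Chsy1* (-0.27) and *Chst15* (-0.61) were at the other end. Among 3 keratan chain enzymes, *B4galt1* (4.53) and *Chst1* (1.15) were higher and *B3gnt2* (-0.27) was not.

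Of 17 growth factors and receptors listed as partners of these proteins, 12 were at least 1 higher and 1 was lower (median 2.03). *Lrp1* (8.43), an endocytic receptor of decorin, *Igf1* (7.70) and *Tgfbr2* (7.30) differed most. *Tlr2* (0.63), a receptor of biglycan, and *Tgfb1* (-0.37) differed little, and *Kdr* (-5.19), a VEGF receptor of endothelial cells, was lower. Of 9 proteases and inhibitors, 6 were higher and 1 lower (median 1.59), with *Timp2* (9.95), *Mmp2* (9.29) and *Adamts5* (6.81) at the top and *Adamts4* (0.23), *Timp3* (0.21) and *Adamts1* (-1.10) at the end. Of 12 other proteoglycans, 8 were higher and 2 lower (median 1.24), with *Gpc3* (8.00), *Sdc2* (5.91) and *Vcan* (4.18) at the top. *Agrn* (0.32), *Sdc3* (-1.33) and *Srgn* (-6.10), the granule proteoglycan of blood and endothelial cells, were at the end. Of 14 genes of adipose progenitor states, 11 were higher and 2 lower (median 2.96). *Pi16* (7.56), *Mgp* (7.08) and *Sema3c* (4.68) led, and *Icam1* (0.08), *Pparg* (-3.24) and *Fabp4* (-9.90) ended the list. All these counts stand beside the 35.6% of all genes that were at least 1 higher and the 2.84% that were at least 1 lower. Listed genes at 0 in all other cells could only come out higher, among them *Thbs2*, *Csgalnact2*, *Lrp1*, *Tlr2*, *Sdc2* and *Vcan*.

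Markers of further cell types were also examined. Of 7 adipocyte markers, 2 had a row. *Lpl*, which is also on the list of adipose progenitor states, was found in 53 stromal cells and 15 other cells (difference 3.32), and *Adipoq* in 1 stromal cell. Of 6 leukocyte markers, only *Cd68* had a row, and it was found in 2 stromal cells and 0 other cells. *Sox9* of cartilage was found in 7 stromal cells and 0 other cells, and *S100b* of Schwann cells in 6 stromal cells. *Tnmd* of tendon was found in 2 stromal cells and 0 other cells, too few to enter the comparison. Each of these genes was the only one of its list with a row. *Wt1*, on the mesothelial list, was found in 20 stromal cells, and *Lrrn4* and *Krt19* in 3 each. On the smooth muscle and pericyte list, 5 of 9 genes had a row. Of these, *Rgs5* and *Mcam* were at 0 in all stromal cells and were found in 3 other cells each. *Cspg4* was found in 2 stromal cells and *Des* and *Notch3* in 1 each, and these 3 genes were at 0 in all other cells. The part of these markers in the members' values was not tested.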

How the data were processed

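Single PV-ADSCs were sequenced with full-length cDNA. The authors used FastQC for read quality, HISAT2 2.0.5 for alignment (mm9), SAMtools 1.4 for sorting, StringTie 1.3.3 for assembly, and scater for quality control and scaling. The signal values the authors deposited are normalized read counts of 85 cells, and the other 9 cells were not analysed here.

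From these values, counts were recovered by finding, in each cell, the step of which a gene group's values are whole multiples (13 groups, 5404 genes, 0 of 144272 values left over, relative tolerance 2e-09). For 20 of 1105 cell and group pairs, fewer than 10 values stand behind the factor. The 9942 genes above 0 in fewer than 10 cells kept their deposited values, among them *Fmod*, *Epyc*, *Tsku* and *Chadl*. So did 723 further genes, whose deposited values were whole numbers. The method was tested on simulated data. Sums of counts ranged from 1146945 to 4776510 per cell. A gene was found in a cell at a value above 0. Differences are means of log2(value + 1) over genes above 0 in at least 3 cells, and called means a difference of 1. For levels per kilobase, the longest coding transcript of GENCODE M21 (GRCm38) was used, where the plan had said the longest transcript, since for *Dcn* that is not a coding one. Genes named from lists are those with the 3 largest and 3 smallest differences, and likeness names the 3 genes of highest rho for each member found in at least 20 stromal cells. The members and lists were chosen with earlier results of these data known. As no cell is tied to an animal, cells were not treated as replicates. Alternatives were other splits (*Dcn* of 100 or 10000, *Dcn* of 1000 counts, the stromal panel, Ward clusters built on 2000 genes without members or listed genes), log2(value + 10), CPM, thinning, other filters and other lengths. Python 3.11.15, numpy 2.4.6, pandas 2.3.3, scipy 1.17.1 and matplotlib 3.10.9 were used. Doublets were not called, and whether any library held more than 1 cell was not tested. Cell 34 held 6 endothelial markers and 6 of the 7 stromal genes at 100 counts.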

Additional observations from a re-analysis of the deposited data

How the results depend on the processing

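The number of stromal cells was 52 to 60 under the other splits, compared with 58. The number of members besides *Dcn* that were at least 1 higher was 6 or 7 under all alternatives tried, while the same share of all genes moved from 35.6% to 60.3% for genes above 0 in at least 10 cells, to 20.5% with log2(value + 10) and to 16.4% for a difference of at least 2. Across 8 alternatives the difference was 7.76 to 10.17 for *Lum*, 6.06 to 8.19 for *Bgn*, 4.95 to 6.74 for *Aspn* and 3.75 to 5.63 for *Prelp*. For *Fmod*, found in 2 cells only, it was -0.12 with the stromal panel. *Dcn* sets the main split and 3 of the others, and *Ogn*, *Podn* and *Omd* are at 0 in other cells, so their direction is largely fixed. The level of *Dcn* over that of *Lum* per kilobase moved from 14.9 to 5.57 with the longest transcript of any kind, a length chosen after seeing the data, which for *Dcn* is not coding, and the order of the medians was the same. The median rho over the pairs was 0.12 to 0.22 under all alternatives. Over cells with both members above 0, 4 of the 15 pairs changed sign, among them *Ogn* and *Prelp* (-0.45 in 22 cells, compared with 0.07 over all 58). Without cell 50, left out after seeing the data, the differences were 10.13 for *Lum*, 8.04 for *Bgn* and 6.61 for *Aspn*. No paired analysis was possible because all cells belong to 1 group and no result comes from a test.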
